A study of Rattus norvegicus with 8 samples.

Results

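Chaperone and stress response genes were followed in the orbitofrontal cortex of rats given an siRNA against a circular RNA. The set was 40 gene symbols, matched to the protein-coding rows of the raw count table: 14 symbols of cytosolic and nuclear heat shock genes, 3 of mitochondrial chaperones and 23 of endoplasmic reticulum (ER) chaperones and unfolded protein response genes. Of these, 39 had a row among 34298 genes, Hspe1 being the symbol without one, and 38 had enough counts to be tested among 16573 genes. The untested member was Hspa1a. No member differed between the groups past the threshold, an adjusted p under 0.05 in edgeR's quasi-likelihood test with Benjamini-Hochberg adjustment.

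The animals were 8 male Sprague-Dawley rats, an outbred strain, 8 weeks old on arrival and labelled adult. All received 1 µl with 5 ng of siRNA and the JetPEI transfection reagent in the orbitofrontal cortex, and the tissue was taken 7 days later. The control siRNA was scrambled (replicates 1, 3, 4 and 5), and the other targeted the junction unique to circNrxn3, a circle spliced from the neurexin 3 gene (replicates 1 to 4, called knockdown libraries after their labels). Values by library follow this order of replicates in each group. No animal without infusion is among the samples, so what surgery, reagent or siRNA did in both groups alike cannot be told apart here.

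Cytosolic chaperones of the HSP70 family bind unfolded stretches of protein, J proteins hand them their clients, and HSP90 completes the folding of many kinases and receptors. Heat shock factor 1 (Hsf1) raises the inducible members when unfolded protein builds up. In the ER the sensors IRE1 (Ern1), PERK (Eif2ak3) and ATF6 are held by the chaperone BiP (Hspa5), and when active they act through the transcription factors XBP1, ATF4 and cleaved ATF6 on chaperone, redox and degradation genes. Neurons fold many receptors and secreted proteins in the ER, and they make constitutive HSC70 and HSP90-beta at high levels.

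Heat shock and ER stress genes are known for short promoter elements that their regulators bind, and 6 promoters are shown for these elements. RefSeq promoters (GRCr8) were at hand for 32 of the 40 symbols, with no entry for Atf6, Ern1, Hsf1, Hsp90aa1, Hspa1b, Manf, Pdia3 and Pdia6. The 250 bases before the gene start were searched on both strands. The heat shock element was searched as GAA, TTC and GAA with 2 bases of any kind between them, and 0.663% of 33469 promoters held it. Among the members these were Hspa8, Hspd1, Hspe1 and Hsph1. The Hspd1 matches, 242 and 237 bases before its start, have the letters of the Hspe1 matches read on the other strand. They are thus not counted as a separate site. Below, capitals mark the element, and the stretches lie at chr9:64084202-64084326 (plus strand, Hspe1), chr12:10427272-10427367 (plus, Hsph1) and chr8:50080264-50080513 (plus, Hspa8), each ending at the base before the start.
Hspe1: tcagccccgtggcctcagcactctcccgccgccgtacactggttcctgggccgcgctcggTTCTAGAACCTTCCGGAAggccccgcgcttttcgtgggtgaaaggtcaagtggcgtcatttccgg
Hsph1: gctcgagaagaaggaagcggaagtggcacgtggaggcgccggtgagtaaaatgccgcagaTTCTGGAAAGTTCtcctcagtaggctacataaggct
Hspa8: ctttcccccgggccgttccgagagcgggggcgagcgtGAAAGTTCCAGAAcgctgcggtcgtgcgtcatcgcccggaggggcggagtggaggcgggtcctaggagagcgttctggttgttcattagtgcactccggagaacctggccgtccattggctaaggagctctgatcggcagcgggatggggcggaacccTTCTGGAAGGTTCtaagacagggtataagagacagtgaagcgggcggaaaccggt
Hspa8 held the element 213 and 55 bases before the start, Hspe1 as overlapping matches 65 and 60 bases before it, and Hsph1 once, 36 bases before it.

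The ER stress response element was searched as CCAAT and CCACG with 9 bases of any kind between them, and was held by 0.0657% of promoters, among them 7 members: Calr, Canx, Creld2, Dnajc3, Hsp90b1, Hspa5 and Xbp1. Its shorter form, ATTGG and CCACG with 1 base between them, was held by 0.0418%, among them Herpud1 and Hyou1. The amino acid response element, TGATGNAA with N for any base, the kind of site ATF4 and CHOP use, was held by 3.4% and by Herpud1, Hspa9 and Trib3. Capitals mark the ER stress response element in Hspa5 and Hsp90b1 and its shorter form in Herpud1, at chr3:38452913-38453015 (plus), chr7:23012294-23012529 (minus) and chr19:10614761-10614891 (minus).
Hspa5: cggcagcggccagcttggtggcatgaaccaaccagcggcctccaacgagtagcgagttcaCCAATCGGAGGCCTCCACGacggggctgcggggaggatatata
Hsp90b1: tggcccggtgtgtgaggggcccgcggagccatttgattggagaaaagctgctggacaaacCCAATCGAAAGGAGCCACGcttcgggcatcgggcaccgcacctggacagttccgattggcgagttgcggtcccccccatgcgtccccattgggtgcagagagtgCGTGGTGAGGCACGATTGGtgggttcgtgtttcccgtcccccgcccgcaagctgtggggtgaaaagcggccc
Herpud1: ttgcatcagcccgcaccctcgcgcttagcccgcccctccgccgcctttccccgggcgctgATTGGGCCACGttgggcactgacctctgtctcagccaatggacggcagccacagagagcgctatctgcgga
Hsp90b1 has the element on both strands. A match is a description of letters, not of a bound site. The 3 tested members with a heat shock element had log2 fold changes of 0.073 to 0.12 (for Hspa8 that of a row on chromosome 5, not of the promoter shown). The 9 with either ER element had 0.0019 to 0.098, those of Xbp1 and Calr turning sign with RLE scaling. With a block on replicate number, Hspa5 turned to -0.018 and Hspd1 to -0.0039. Whether the elements go with the values was not tested.

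Sequencing gave 27589883 to 35221782 counts per library. Cortical markers were present, with Slc17a7 at 1767 to 2601 and Neurod6 at 69.3 to 94.98 CPM, that is, counts scaled to a common library size with TMM factors. Over all genes the test called 0 of 16573 (0%), while 926 (5.59%) had an unadjusted p under 0.05, 395 higher (2.38%) and 531 lower (3.2%), and DESeq2 called 18 of 4042 genes with an adjusted p (0.445%). On simulated counts of the same design, edgeR recovered 36.7% of genes with a 1.5-fold and 85.3% of genes with a 4-fold change, and 0.667% at the smallest fold simulated, so small shifts were not detectable here. Nrxn3, the host gene of the circle (rn6 chromosome 6, 113898420 to 114067055, exon length 1293 bases), was at 12.3, 3.40, 6.44 and 8.87 CPM in the scrambled and at 11.6, 12.4, 2.95 and 8.45 in the knockdown libraries. The groups overlapped, with a log2 fold change of 0.20 (SE 0.48), and libraries made with poly-T beads do not check a circular RNA.

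Of the 13 cytosolic members tested, 0 passed, 6 had a log2 fold change above 0 and 7 below, with a median of -0.018 and a range of -0.50 to 0.19. These include the low rows named Hspa8 and Hsp90aa1. The higher models described as HSC70 (AABR07070032.1, 0.069) and HSP90-alpha (LOC103692716, 0.51), read below, are not counted. Both mitochondrial members tested were above 0 (median 0.19). In the ER class 0 of 23 passed, 15 were above 0 and 8 below, with a median of 0.023 and a range of -0.25 to 0.16. Over all genes tested the median was 0.0066, with 51.3% above 0. The groups did not overlap for 2 members, Dnaja1 and Hsph1, both higher with the knockdown, beside 302 of all genes (1.82%) that were apart in that direction and 274 (1.65%) in the other. Adjusted p-values of members ran from 0.833 to 1.00 in edgeR's quasi-likelihood test.

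**Figure D1:**
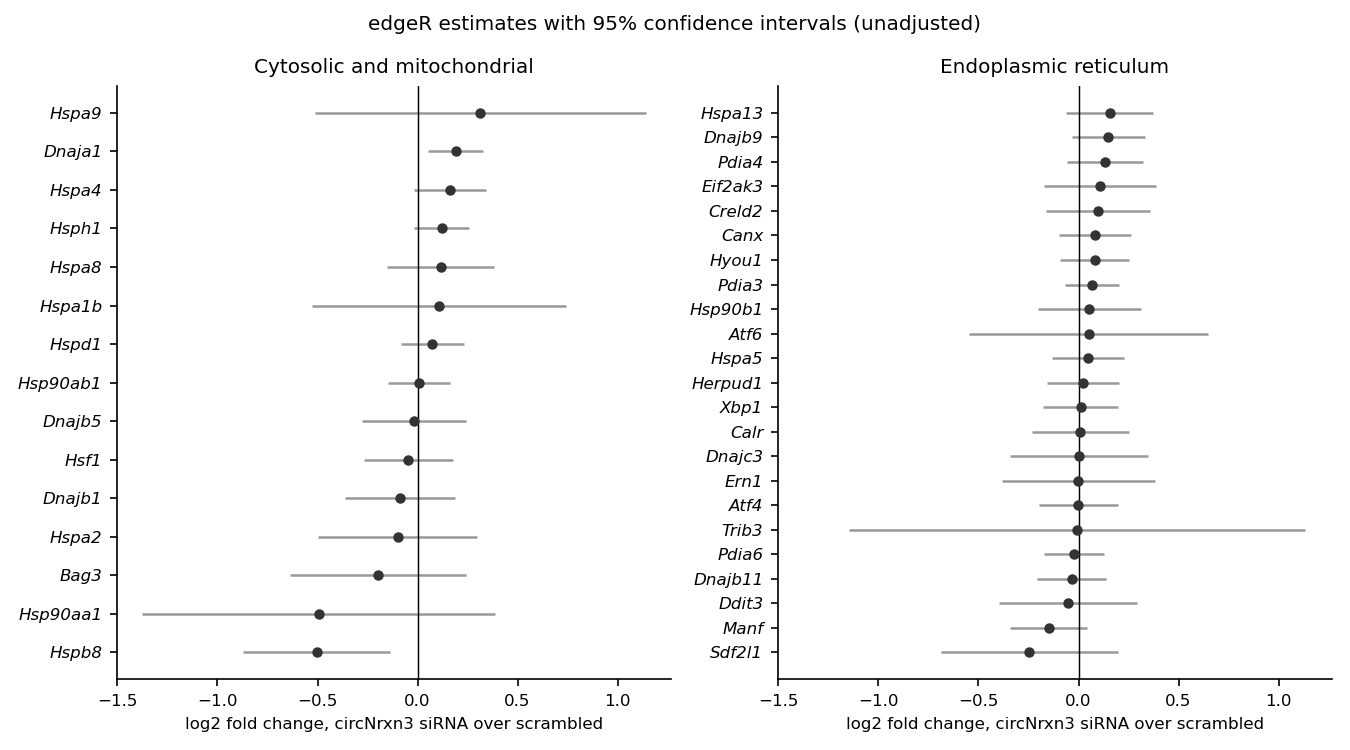
Log2 fold change of circNrxn3 siRNA over scrambled siRNA for the 15 cytosolic and mitochondrial and the 23 ER members tested; points are edgeR estimates from 4 against 4 libraries and lines their unadjusted 95% confidence intervals. The intervals of Dnaja1 and Hspb8 exclude 0, and those of Hsp90aa1, Hspa9, Atf6 and Trib3 are wide.

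The J proteins stimulate the ATPase of HSP70. Dnaja1 (chromosome 5, 57028467 to 57039378, rn6 as for all gene positions) was at 173.8, 177.8, 172.8 and 177.8 CPM in the scrambled and at 194.5, 201.6, 192.2 and 213.0 in the knockdown libraries. Every knockdown library was above every scrambled one, and the scrambled libraries lay close together. The log2 fold change was 0.19 (SE 0.061, 95% interval 0.054 to 0.33), with an unadjusted p of 0.0108 and an adjusted p of 0.833 in edgeR's quasi-likelihood test. Dnajb1, the heat-inducible J protein, ranged from 89.4 to 127.4 CPM and Dnajb5 from 149.8 to 206.3, both with overlapping groups and log2 fold changes of -0.089 and -0.018.

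Hspb8 (chromosome 12, 45905371 to 45920013), a small heat shock protein that works with the cochaperone BAG3 in selective autophagy, lay the other way. Its level was 31.6, 41.3, 24.1 and 30.1 CPM in the scrambled and 21.4, 26.4, 23.5 and 18.4 in the knockdown libraries. Scrambled replicate 3 was highest, and the groups overlapped because scrambled replicate 4 lay below knockdown replicate 2. On the log2 scale the fold change was -0.50 (SE 0.16, 95% interval -0.87 to -0.14), with an unadjusted p of 0.0119 and an adjusted p of 0.833 in edgeR's quasi-likelihood test. With each library left out it was -0.62 to -0.36, smallest in size without scrambled replicate 3.

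Its partner Bag3 was at 8.55, 11.2, 7.33 and 7.51 CPM in the scrambled and at 6.595, 7.74, 9.68 and 6.21 in the knockdown libraries. Here too scrambled replicate 3 was highest, but knockdown replicate 3 came next and the groups overlapped. Between the groups the log2 fold change was -0.20 (SE 0.20), -0.050 without scrambled replicate 3, -0.35 without knockdown replicate 3 and -0.11 without knockdown replicate 4. Summed over 10 of 10 astrocyte markers the level was 3982 to 4311 CPM in scrambled and 3552 to 3876 in knockdown libraries, which do not overlap. Summed red blood cell markers (6 of 6 found, none at 0 in all libraries) were 607.8 to 2440 CPM against 359.5 to 759.6, highest in scrambled replicate 3. Their part in the values of Hspb8 and Bag3 was not tested, and in bulk tissue fewer cells of a type and less RNA per cell cannot be told apart.

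Of the 11 cell type lists, the sums of infiltrating leukocyte markers were also apart, but only narrowly. They were at 9.05 to 11.5 CPM in the scrambled and 7.02 to 9.001 in the knockdown libraries, and 5 of the 8 markers had enough counts to be tested. Of excitatory cortical neurons 7 markers, without 1 gene not reported here, summed to 9424, 9431, 10159.7 and 10046.5 CPM in the scrambled and to 8480.1, 8256, 8789 and 9792 in the knockdown libraries. There 3 of the 4 knockdown libraries lay below every scrambled one, and the part of this in the values of the members was not tested. The remaining sums overlapped. Those of inhibitory neurons were 1133 to 1369.8 against 1111 to 1298 CPM, and of striatal neurons 318.9 to 414.1 against 314.8 to 391.6. Oligodendrocyte markers summed to 2078 to 4873 against 2638 to 4289.8 CPM, those of their precursors to 125.2 to 184.2 against 135.0 to 166.6, and microglial ones to 360.6 to 583.8 against 335.7 to 554.2. Endothelial and mural markers, with Cldn5 at 0, were at 182.3 to 191.4 against 166.5 to 209.2 CPM, and meningeal ones, with Ogn at 0, at 24.5 to 33.5 against 18.2 to 34.1.

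HSP110 proteins exchange the nucleotide of HSP70 and act with it in pulling proteins out of aggregates. Hsph1 was at 230.4, 237.4, 232.9 and 218.8 CPM in the scrambled and at 252.0, 251.2, 237.8 and 258.2 in the knockdown libraries. The groups were apart only narrowly, between scrambled replicate 3 and knockdown replicate 3. Its log2 fold change was 0.12 (SE 0.062, 95% interval -0.017 to 0.26).

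Hspa4, a second member of that family, was at 143.5, 137.2, 145.2 and 137.0 CPM in the scrambled and at 168.3, 167.1, 134.8 and 159.2 in the knockdown libraries. Of the knockdown libraries 3 were above all scrambled ones, and knockdown replicate 3 was below all of them. This gave a log2 fold change of 0.16 (SE 0.081), and with a trend on gene length removed the values were 0.091 for Hspa4 and 0.066 for Hsph1.

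Both rows named for inducible HSP70 were low. Hspa1a had 3, 0, 0 and 0 counts in the scrambled and 1, 0, 0 and 0 in the knockdown libraries, and a count of 0 allows up to 3 counts, or 0.0811 to 0.108 CPM in these libraries (counting error only), so no fold is given. Hspa1b was at 1.07, 1.22, 1.67 and 1.53 CPM in the scrambled and 1.70, 1.44, 1.62 and 1.17 in the knockdown libraries, overlapping throughout. Its log2 fold change was 0.11 (SE 0.29), and its row overlaps RT1-CE4 on the same strand, which had a mean count of 237.1 against 45.1. Hspa2, a testis-enriched HSP70 that is also made in brain, ranged from 15.4 to 27.7 CPM.

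The factor behind the heat shock response was measured well above these. Hsf1 was at 46.8, 55.7, 43.8 and 54.8 CPM in the scrambled and at 42.7, 52.2, 50.7 and 49.1 in the knockdown libraries. The groups overlapped, with a log2 fold change of -0.047 (SE 0.10).

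The rows named Hspa8 and Hspa1a lie among other genes than the RefSeq genes of those names. For each member the 3 neighbouring genes on each side were compared with those of the RefSeq gene of that name (GRCr8, used for names only). Of 39 rows 37 shared at least 1 neighbour, while Hspa8 and Hspa1a shared none. The Hspa1b row shared only 1 of 6, so its place is also uncertain. The Hspa8 row (chromosome 5, 99031013 to 99033107) has an exon length of 2095 bases, equal to its span, so it holds no intron. It was at 9.55, 9.57, 10.0 and 10.4 CPM in the scrambled and at 10.6, 12.01, 10.5 and 9.83 in the knockdown libraries, with a log2 fold change of 0.12 (SE 0.12).

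After these values were seen, 4 further gene models were read under the names the table gives. AABR07070032.1 (chromosome 8, 44990014 to 44993179) is described as the heat shock cognate 71 kDa protein, HSC70, and shares 6 of 6 neighbours with RefSeq's Hspa8. It was at 773.9, 1022, 914.3 and 842.3 CPM in the scrambled and at 851.3, 922.1, 1012 and 940.2 in the knockdown libraries, which overlapped, with a log2 fold change of 0.069 (SE 0.097). Per length its level was 83.0 to 115 times that of the Hspa8 row, at a mean FPKM of 465.5 against 4.88. A second intronless-length model, LOC680121, described as similar to this protein, ranged from 82.0 to 104.7 CPM, and reads of near-identical copies may be split among the 3 rows.

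A model with another name is also described as HSP90-alpha. The Hsp90aa1 row was at 8.98, 2.27, 3.99 and 2.89 CPM in the scrambled and at 2.89, 4.01, 2.88 and 3.06 in the knockdown libraries. Scrambled replicate 1 stood far above the rest. The log2 fold change was -0.49 (SE 0.40) and was 0.074 without that library and -0.32 with the trend on gene length removed. The row overlaps Dync1h1 on the opposite strand, with a mean count of 1108 against 119.1.

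LOC103692716 (chromosome 6, 135107271 to 135112775), described as HSP90-alpha, was at 57.1, 40.8, 27.5 and 22.3 CPM in the scrambled and 33.9, 51.3, 42.6 and 82.8 in the knockdown libraries. Both groups spread widely and overlapped, with knockdown replicate 4 highest. The log2 estimate was 0.51 (SE 0.36), 0.80 if scrambled replicate 1 is left out, 0.33 if scrambled replicate 5 is, and 0.21 if knockdown replicate 4 is. Per length it lay 5.08 to 21.6 times above the Hsp90aa1 row. HSP90-beta, Hsp90ab1, was the highest member per length (mean FPKM 614) and among the steadiest, from 1566 to 1729 CPM over all libraries, with a log2 fold change of 0.0059 (SE 0.070).

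**Figure D2:**
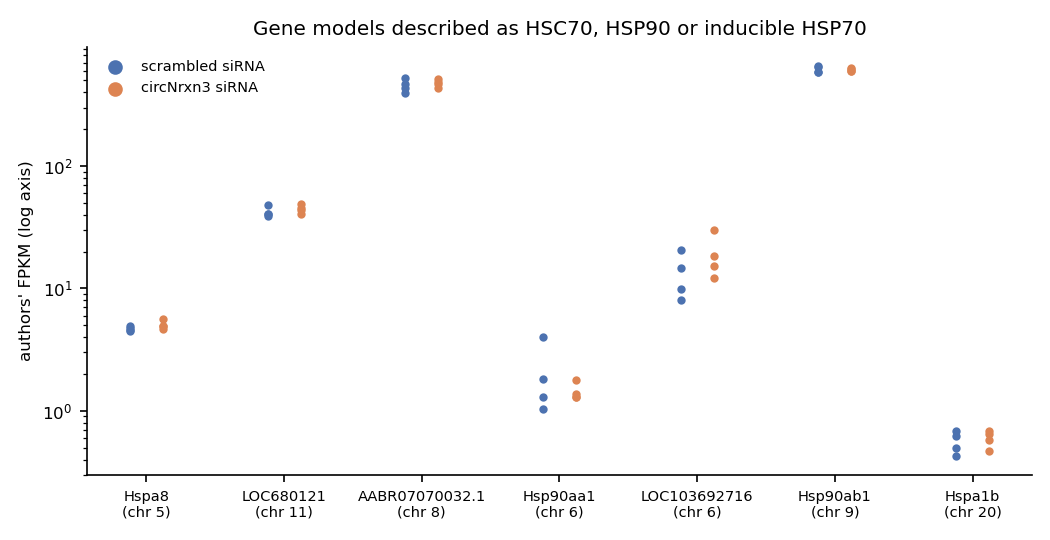
Authors' FPKM (log axis) of 7 gene models described as HSC70, HSP90 or inducible HSP70, 1 point per library and 4 libraries per group. The chromosome 8 model AABR07070032.1 lies 83.0 to 115 times above the row named Hspa8, and LOC103692716 lies 5.08 to 21.6 times above the row named Hsp90aa1.

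**Figure D3:**
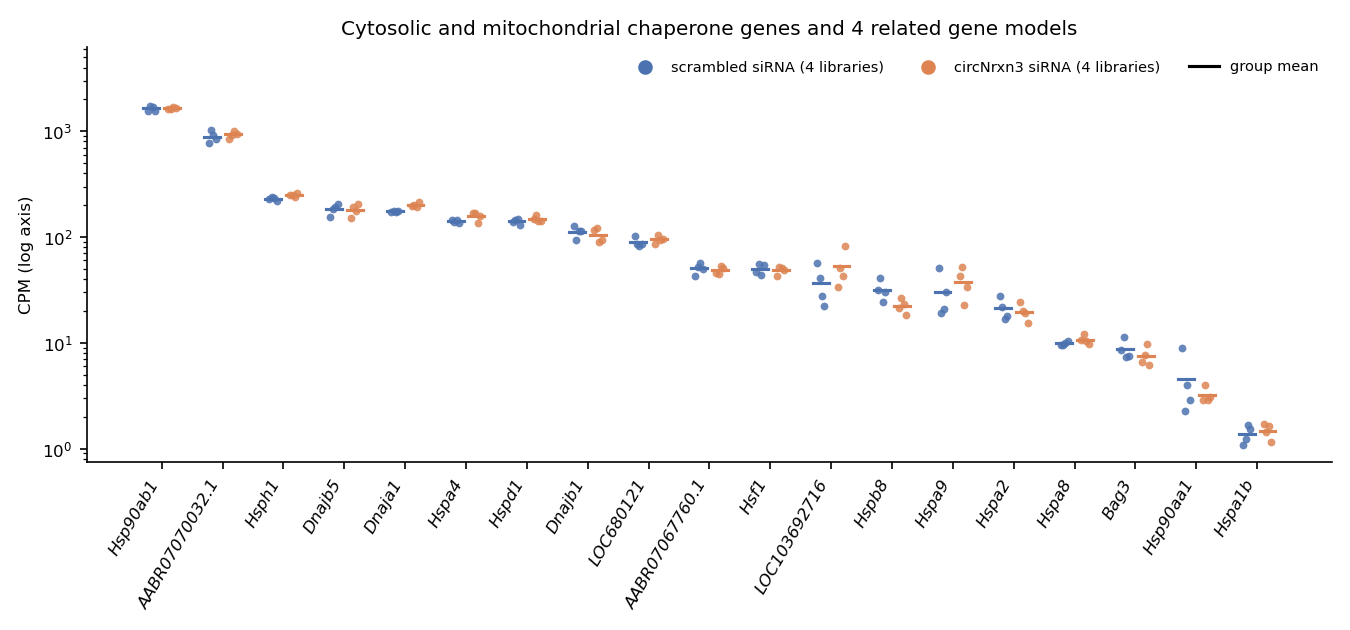
CPM (log axis) of the cytosolic and mitochondrial members tested and of 4 related gene models in each library; bars are group means of 4 libraries. The groups are apart for Dnaja1 and Hsph1 and overlap for the other genes shown.

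In the mitochondrial matrix HSP60 and HSP10 form the folding chamber and mortalin pulls imported proteins inward. HSP60, Hspd1, was at 139.9, 144.2, 147.2 and 129.6 CPM in the scrambled and at 147.5, 159.9, 141.0 and 141.5 in the knockdown libraries. These overlapped, with a log2 fold change of 0.073 (SE 0.071). Hspe1, the HSP10 gene, had no row of its name, but AABR07067760.1 (chromosome 9, 61692154 to 61694599, exon length 267) lies beside Hspd1 and shares 5 of 6 neighbours with RefSeq's Hspe1. It was at 43.3, 52.2, 56.6 and 49.96 CPM in the scrambled and at 45.6, 45.1, 53.5 and 51.2 in the knockdown libraries, overlapping, with a log2 fold change of -0.049 (SE 0.097).

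Mortalin, Hspa9, singled out after its values were seen, was at 50.9, 19.2, 21.1 and 30.5 CPM in the scrambled and at 43.0, 51.6, 22.7 and 33.6 in the knockdown libraries. The highest library was 2.69 times the lowest and both groups spanned most of that range. On the log2 scale the fold change was 0.31 (SE 0.36), 0.68 without scrambled replicate 1 and 0.13 without knockdown replicate 2.

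BiP, the HSP70 of the ER, is the usual readout of the unfolded protein response. Hspa5 (chromosome 3, 13838304 to 13842762) was at 224.1, 251.2, 227.7 and 235.3 CPM in the scrambled and at 230.4, 276.1, 235.8 and 227.3 in the knockdown libraries. Knockdown replicate 2 was highest and the other libraries were mixed. Between the groups the log2 fold change was 0.047 (SE 0.080), and its unadjusted 95% interval of -0.13 to 0.23 corresponds to folds of 0.913 to 1.17. The ER HSP90, Hsp90b1, ranged from 219.1 to 296.6 CPM and the ER HSP110, Hyou1, from 90.8 to 112.2, with log2 fold changes of 0.053 and 0.081.

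Hspa13, an HSP70 relative of the microsomal fraction, was at 50.8, 37.5, 44.7 and 46.9 CPM in the scrambled and at 53.9, 50.1, 46.5 and 49.8 in the knockdown libraries. Scrambled replicate 3 was lowest and the groups overlapped. This gave a log2 fold change of 0.16 (SE 0.098), 0.10 with the trend on gene length removed and 0.073 without scrambled replicate 3.

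Cochaperones of BiP were on both sides of 0. Dnajb9, a J protein that IRE1 and XBP1 induce, was at 27.4, 24.9, 28.4 and 29.5 CPM in the scrambled and at 31.0, 29.3, 32.6 and 29.3 in the knockdown libraries. The overlap came from scrambled replicate 5, just above knockdown replicates 2 and 4. Its log2 fold change was 0.15 (SE 0.082; 0.098 without scrambled replicate 3), with an adjusted p of 0.833 in edgeR's quasi-likelihood test.

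Sdf2l1, which keeps BiP cycling with Dnajb11, was at 10.6, 16.7, 14.2 and 16.4 CPM in the scrambled and at 13.03, 12.7, 14.7 and 8.38 in the knockdown libraries. The lowest library was knockdown replicate 4, and scrambled replicate 1 was next, so the groups overlapped. The log2 fold change was -0.25 (SE 0.20), -0.10 without knockdown replicate 4 and -0.37 without scrambled replicate 1. Dnajb11 ranged from 47.2 to 57.0 CPM and Dnajc3, which also restrains PERK, from 7.03 to 9.43, with log2 fold changes of -0.033 and 0.0019.

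Disulfide isomerases form and reshuffle the bonds of secreted proteins. Pdia4 was at 30.2, 30.3, 27.1 and 31.0 CPM in the scrambled and at 32.7, 33.9, 34.7 and 28.8 in the knockdown libraries. Of the knockdown libraries 3 were above all scrambled ones and replicate 4 was below 3 of them, with a log2 fold change of 0.13 (SE 0.085; 0.086 without scrambled replicate 4). Pdia3, which serves the lectin chaperones, was at 202.2, 194.5, 210.9 and 195.4 CPM against 215.6, 213.8, 207.5 and 203.3, overlapping, with 0.066 (SE 0.061) on the log2 scale. Its row overlaps Ppip5k1 on the opposite strand, which had a mean count of 2550.0 against 6468. Pdia6 ranged from 145.8 to 168.1 CPM.

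The lectin chaperones hold glycoproteins until they fold. Calreticulin, Calr, named after its values were seen, was at 432.7, 540.4, 564.8 and 534.3 CPM in the scrambled and at 441.3, 505.2, 570.9 and 565.9 in the knockdown libraries. Replicate 1 was the lowest in each group, and the log2 fold change was 0.0076 (SE 0.11), turning sign with RLE scaling. Calnexin, Canx, ranged from 275.7 to 349.0 CPM.

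Manf, a secreted ER protein with trophic action on neurons, was at 59.3, 72.8, 70.5 and 68.9 CPM in the scrambled and at 56.6, 58.3, 67.6 and 62.3 in the knockdown libraries. All knockdown libraries lay below scrambled replicates 3, 4 and 5, and scrambled replicate 1 lay among them. On the log2 scale the fold change was -0.15 (SE 0.087), and -0.062 with the trend on gene length removed. Creld2 ranged from 11.9 to 15.8 CPM, and Herpud1, an adaptor of ER-associated degradation, from 54.5 to 67.0.

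The sensors were low. Eif2ak3 ranged from 16.3 to 23.8 CPM and Ern1 from 5.47 to 7.97, with log2 fold changes of 0.11 (SE 0.13) and -0.00071 (SE 0.17). Atf6, chosen after its values were seen, was at 11.9, 4.98, 5.96 and 7.92 CPM in the scrambled and at 9.03, 8.88, 5.97 and 7.97 in the knockdown libraries. Its highest library was 2.40 times its lowest, both of them scrambled, and the log2 fold change was 0.050 (SE 0.27).

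Among the transcription factors, Xbp1 was at 56.7, 63.6, 63.8 and 63.4 CPM in the scrambled and at 57.1, 71.4, 61.5 and 59.5 in the knockdown libraries. Knockdown replicate 2 was highest, as it was for Hspa5, and the log2 fold change was 0.011 (SE 0.085), turning sign with RLE scaling. The gene counts do not separate the spliced, active form of Xbp1 from the unspliced one.

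Atf4, whose protein is controlled mainly by translation, was at 252.2, 289.8, 321.4 and 298.4 CPM in the scrambled and at 273.8, 273.2, 294.9 and 318.1 in the knockdown libraries, overlapping, with a log2 fold change of -0.0023 (SE 0.089). Ddit3, which encodes the pro-apoptotic factor CHOP, was at 30.9, 37.9, 42.0 and 38.2 CPM against 35.7, 28.6, 47.4 and 32.0. The knockdown group held both its highest and its lowest library. Between the groups the log2 fold change was -0.054 (SE 0.15), and the row overlaps Mars on the opposite strand, with a mean count of 2718 against 1150. Trib3, a target of both factors, was at 0.306 to 1.10 CPM.

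**Figure D4:**
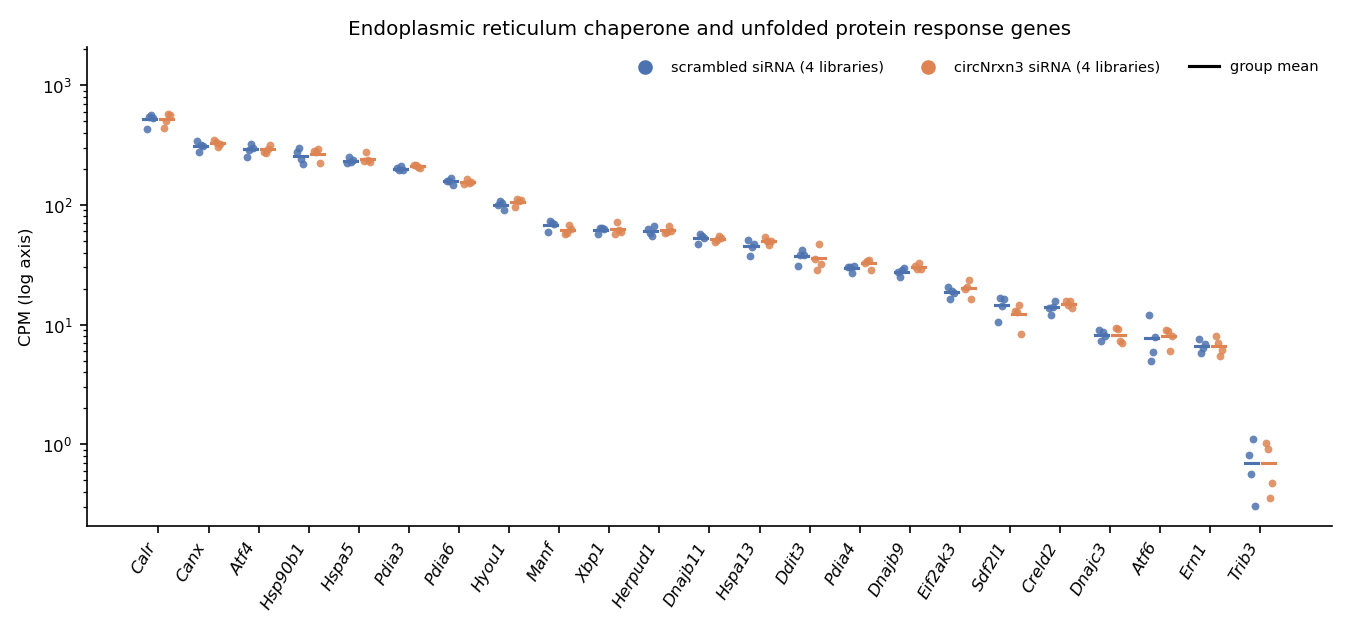
CPM (log axis) of the 23 ER members in each library, ordered by level; bars are group means of 4 libraries. The groups overlap for every gene shown, from Calr at 432.7 to 570.9 CPM down to Trib3 at 0.306 to 1.10.

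Libraries differed in the balance of long and short gene models. The ratio of long to short gene models is the mean log2 CPM of the longest tested genes (3486 bases or more) minus that of the shortest (1372 or fewer), centred over libraries. It was 0.059, -0.080, -0.15 and -0.011 in the scrambled and 0.083, 0.15, -0.053 and 0.0042 in the knockdown libraries. The means were -0.046 ± 0.091 and 0.046 ± 0.089 (SD, n = 4 each), with a 2-sided exact permutation p of 0.2 where 0.0286 is the smallest that 70 arrangements allow.

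After these values were seen, the 3 highest libraries (scrambled replicate 1, knockdown replicates 1 and 2) were set against the 3 lowest (scrambled replicates 3 and 4, knockdown replicate 3). Of 38 members 7 (18.4%) were higher without overlap in the first, Dnajb1, Hspa9, Hspa13, Dnajc3, Canx, Ern1 and Atf6, beside 19.9% of all genes. Another 7 (18.4%) were lower, Hsp90ab1, Dnajb11, Sdf2l1, Calr, Manf, Atf4 and Ddit3, beside 16.6% of all genes. Hspa13, Canx, Ern1, Atf6, Sdf2l1, Manf and Ddit3 are of the lengths that enter the ratio, so it was built in part from them. Nrxn3, outside the set and also of such a length, was higher without overlap in the 3 highest libraries. The shares are close to those of all genes, and the counts give no result about chaperone genes. Among the 3 libraries of high ratio, Dnaja1 was at 173.8 CPM with the scrambled siRNA against 194.5 and 201.6 with the knockdown. Among the 3 of low ratio it was at 177.8 and 172.8 against 192.2. Its groups do not overlap over all libraries, so any split would give this order. Hspb8 was at 31.6 against 21.4 and 26.4 in the libraries of high ratio, and at 41.3 and 24.1 against 23.5 in those of low ratio. The part of the ratio in the values of Dnaja1 and Hspb8 was not tested.

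**Figure D5:**
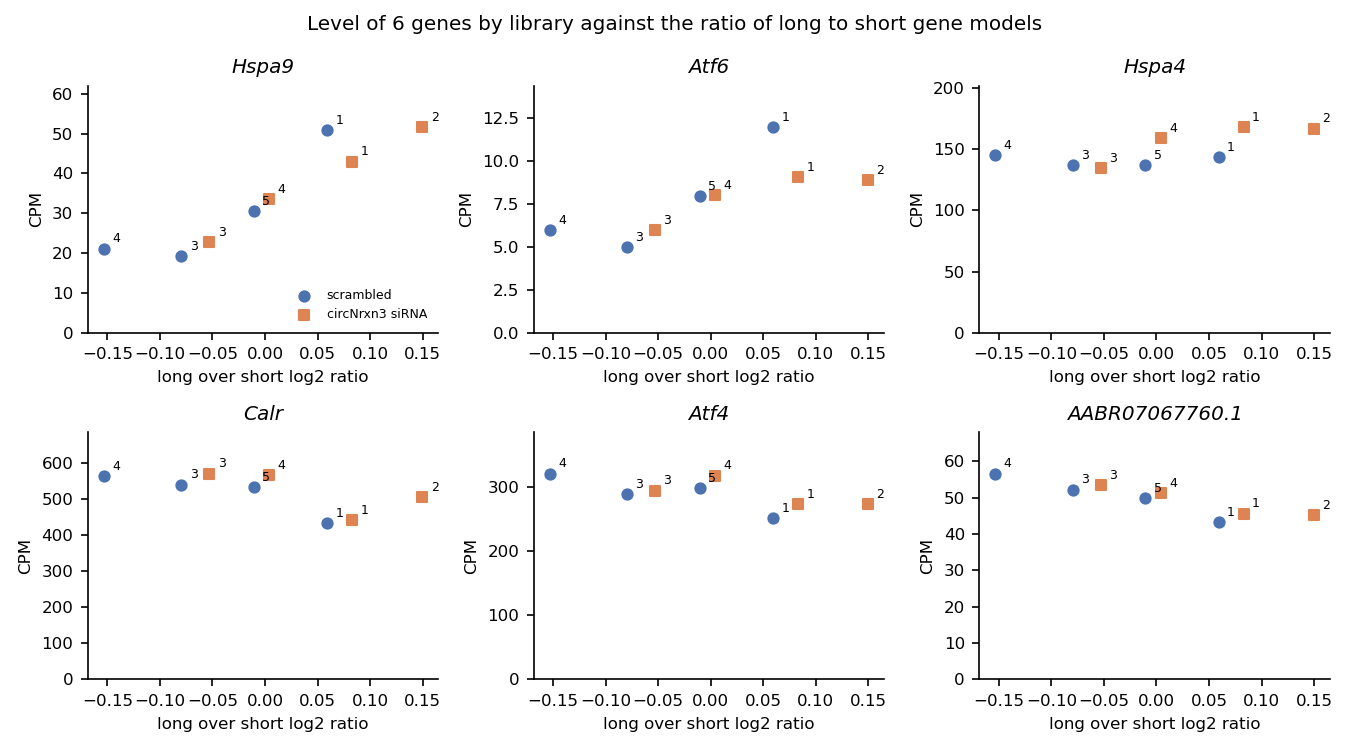
CPM of 6 genes, chosen after their values were seen, against each library's log2 ratio of long to short gene models; circles are scrambled and squares circNrxn3 siRNA libraries, numbered by replicate. Hspa9 and Atf6 are higher at a high ratio, Calr, Atf4 and AABR07067760.1 are lower, and Hspa4 overlaps between the 3 highest and the 3 lowest libraries. Atf6, Hspa4 and AABR07067760.1 are of the lengths that enter the ratio, so it was built in part from them.

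Genes of the same pathways outside the set were read from lists, and 0 passed in any of them. Of 32 further cytosolic chaperones and cochaperones 16 had a log2 fold change above 0 and 16 below (median -0.012). Dnaja2, a close relative of Dnaja1, was at 152.4, 138.8, 137.1 and 142.0 CPM in the scrambled and at 163.3, 168.8, 155.1 and 162.9 in the knockdown libraries. Its groups did not overlap, and the log2 fold change was 0.19 (SE 0.064, adjusted p 0.833 in edgeR's quasi-likelihood test). Stub1, the ubiquitin ligase that works on HSP70 clients, had -0.20 (SE 0.088).

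Among 8 further mitochondrial chaperones and proteases 4 were above 0 and 4 below (median -0.016). Clpx, the unfoldase of the matrix protease ClpXP, was at 21.0 to 23.2 CPM in the scrambled and 24.3 to 25.3 in the knockdown libraries, without overlap, with a log2 fold change of 0.18 (SE 0.076). The matrix J protein Dnaja3 had 0.11 (SE 0.083). Of 33 further ER folding and degradation genes 18 were above 0 and 15 below (median 0.02). Sel1l, a scaffold of ER-associated degradation, had 0.20 (SE 0.086), and 0.12 with the trend on gene length removed. Wfs1, an ER membrane protein mutated in Wolfram syndrome, had -0.41 (SE 0.19).

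The integrated stress response reaches ATF4 through kinases of the initiation factor eIF2. Of 24 of its genes 8 were above 0 and 16 below (median -0.06). Atf5, a factor related to ATF4, was at 69.1, 76.3, 66.0 and 86.4 CPM in the scrambled and at 56.7, 52.7, 66.3 and 56.7 in the knockdown libraries. Only scrambled replicate 4 lay below a knockdown library, replicate 3, and the log2 fold change was -0.36 (SE 0.10, unadjusted p 0.0057 and adjusted p 0.833 in edgeR's quasi-likelihood test).

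Eif2ak1, the kinase HRI, was at 33.6, 31.8, 25.5 and 32.35 CPM against 41.0, 50.2, 31.7 and 35.2, higher in 3 of the 4 knockdown libraries than in any scrambled one. Its log2 fold change was 0.36 (SE 0.14), and 0.22 without knockdown replicate 2. Summed immediate early genes, which follow neuronal activity, were at 847.7 to 1553 CPM in the scrambled and 739.0 to 1481 in the knockdown libraries, and their part in any value above was not tested.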

How the data were processed

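Messenger RNA of 8 orbitofrontal cortex samples, 4 per siRNA group, was sequenced from poly-T selected, strand-marked (dUTP) libraries, per the labels' protocols. The deposited table gives raw read counts per gene, and the authors also deposited FPKM values, counts scaled by gene length and a library total. Of tools, featureCounts 1.5.0-p3, HISAT2 2.0.5, fastp and StringTie 1.3.3b are named in the submitters' processing notes, with the build rn6. Their roles, settings and use of strand in counting are not given in the sources used here. Samples of a group are biological replicates per the labels, so the spread behind each p-value is that between samples.

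Counts were fitted with edgeR 4.0.16 (R 4.3.3): filterByExpr with a minimum count of 10, TMM scaling, robust quasi-likelihood F test, no covariates, 2-sided, Benjamini-Hochberg adjustment over 16573 genes, threshold 0.05. The fit was tested on simulated data. Standard errors are the fold change over the square root of F. Alternatives were RLE and upper-quartile scaling, other filters, DESeq2 1.42.0, limma-voom (limma 3.58.1), protein-coding genes alone, log2(FPKM + 1) and log2(FPKM + 0.1), removal of a trend on gene length, a replicate block and each library left out.

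Members and lists were chosen with earlier results of these data known. Given by library are the 6 cytosolic and 6 ER members with the smallest p, with Hspa1a, Hspa1b, Hspa8, Hsf1, Hspd1, Hspa5, Xbp1, Atf4, Ddit3 and Nrxn3 always, and from each wider list the 2 genes with the smallest p. Other genes named with values in every library were chosen after their values were seen. Marker lists of 11 cell types were read as sums, 1 of them without a gene that is not reported here.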

Additional observations from a re-analysis of the deposited data

Results flagged for a closer look

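Levels of 36 genes were examined in both groups, 72 groups of 4 libraries in all, for a library whose gap to the nearest other exceeds Dixon's 95% limit, a size that chance gives in about 1 of 20 groups. This occurred in 2. Hsp90aa1 was at 4.01 CPM in knockdown replicate 2, with the other knockdown libraries at 2.88 to 3.06. Xbp1 was at 56.7 CPM in scrambled replicate 1, with the other scrambled libraries at 63.4 to 63.8.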

How the results depend on the processing

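No member passed under any of the 24 alternatives. The count over all genes was 0 as reported, 18 with DESeq2, 0 to 1 with each library left out (1 without knockdown replicate 2 and 1 without knockdown replicate 3), and, in fits added after seeing the data, 12 with DESeq2 without independent filtering, 11 with DESeq2 on all genes with a count and 3 with knockdown replicate 3 and scrambled replicates 3 and 4 all left out. The smallest adjusted p of a member with DESeq2 was 0.196, over the 21 members that had one. The cytosolic median was -0.069 with the length trend removed. With each library left out, the medians were -0.051 to 0.013 (cytosolic), 0.015 to 0.069 (ER, highest without knockdown replicate 4) and 0.079 to 0.38 (mitochondrial), and the difference in length ratio was 0.0563 to 0.127.

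Of 36 named genes 25 kept their sign in every alternative. Xbp1 turned to -0.00256 with RLE scaling, -0.00284 with DESeq2 (also without independent filtering), -0.00145 with DESeq2 on all genes with a count and -0.00391, -0.00401 and -0.00391 in the 3 FPKM fits. Calr turned to -0.00614 with RLE scaling, -0.00615 with DESeq2 (also without independent filtering), -0.00478 with DESeq2 on all genes with a count, -0.00471, -0.00472 and -0.00471 in the FPKM fits and -0.000869 with protein-coding genes alone. Atf4 turned to 0.00265 with upper-quartile scaling, 0.046 without the length trend and 0.070 without the 3 libraries, Ddit3 to 0.011 without the length trend, AABR07067760.1 to 0.019 without the length trend and 0.025 without the 3 libraries, and Atf6 to -0.20 without the 3 libraries. With each library left out, signs turned within -0.72 to 0.074 for Hsp90aa1, -0.059 to 0.052 for Xbp1, -0.11 to 0.011 for Hsf1, -0.056 to 0.51 for Nrxn3, -0.064 to 0.044 for Atf4, -0.23 to 0.041 for Ddit3, -0.12 to 0.0049 for AABR07067760.1, -0.021 to 0.077 for Hspa5, -0.11 to 0.34 for Atf6 and -0.069 to 0.079 for Calr. The cause was not tested.

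The groups share replicate numbers 1, 3 and 4, whose libraries' deviations correlated at 0.369, 0.299 and 0.0866. Pairing was accepted only with every correlation above 0.1, which number 4 missed, and no label says what a number marks, so the numbers were not taken as pairs. As a hint from the data alone, 5 of these 6 libraries correlated best with the library of their own number. With a replicate block over these 6 libraries 0 genes passed. The smallest adjusted p of a member was 0.126 in edgeR's quasi-likelihood test, for Hspb8 at a log2 fold change of -0.59. The sign turned for Xbp1 (-0.046), Atf4 (0.043), Ddit3 (0.046), Hspd1 (-0.00387) and Hspa5 (-0.018). Wfs1 was at -0.62 (edgeR adjusted p 0.0935) in that fit.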
